A study of Mus musculus with 7 samples.

Results

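Complement components and receptors were followed across the 7 libraries of contused mouse spinal cord. The 9 genes were chosen by symbol, as complement genes of microglia and astrocytes that are reported elsewhere to be clock-controlled. No value of these libraries enters that rule, but the choice was made with earlier results of these data known. The genes were *C1qa*, *C1qb*, *C1qc*, *C2*, *C3*, *C4b*, *C3ar1*, *C5ar1* and *Serping1*, 9 of the 21965 genes in the table, and all 9 were among the 15743 genes that passed the filter on low counts.

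RNA came from a 5 mm cord segment around the epicenter of a moderate T9 contusion (50 kdyn) at dpi 3, and no uninjured cord was among the samples. The mutant group held 3 mice labelled *Bmal1*-/- (also called *Arntl* knockout, 2 females and 1 male). It carries a germline null allele on the same C57BL/6J background as WT, so all cell types carry the allele and not only glia. The WT group held 4 C57BL/6J mice (2 females and 2 males), of which 1 was a littermate of the mutants and the others were bought and matched by age and sex. All mice were 8 to 10 weeks old and were killed in the morning, so a single clock phase was sampled. Each mouse gave 1 library.

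Complement is a chain of plasma and tissue proteins that marks debris, synapses and microbes for removal. C1q binds the target and sets off cleavage of C4 and C2, whose fragments join into an enzyme that cleaves C3. The C3 fragments coat the target, while the small peptides C3a and C5a act on receptors of myeloid cells. In the central nervous system C1q comes mainly from microglia and macrophages, and C3 and C4 are raised in reactive astrocytes.

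Total counts ran from 38529644 to 44096737. WT 3 stood apart from the other libraries on the first 2 principal components, which held 48.6% and 26.3% of the variance, and it also had the highest sum of macrophage markers. *Bmal1*-/- 2 stood apart from the other mutants by its fibroblast markers, whose sum was 2463 CPM (read counts scaled by library size and TMM factors) against 512 and 431 CPM. Fold changes of members that rest on either library are therefore given without it as well, while counts of genes by direction are not. The targeted gene *Arntl* was counted at 22.5 to 24.2 CPM in the libraries labelled *Bmal1*-/- and at 11.9 to 15.3 CPM in WT. Its count over the whole gene was thus higher, not lower, under the knockout label. Its target genes *Per3* and *Nr1d2* were nevertheless lower in the same libraries, with log2 fold changes of -2.21 and -2.68 (adjusted p = 0.00115 and 0.000456 from edgeR's quasi-likelihood fit, Benjamini-Hochberg adjusted). By qPCR, the authors could not detect *Bmal1* mRNA at dpi 3 in the cord of a separate set of *Bmal1*-/- mice. Below, higher and lower refer to the libraries labelled *Bmal1*-/-, with WT as the reference.

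The defining markers of microglia (11 genes) and of astrocytes (11 genes) were present in every library. The microglia markers summed to 1754 to 2057 CPM in *Bmal1*-/- and 1881 to 2444 CPM in WT, and the macrophage markers to 2521 to 3460 CPM and 2474 to 5054 CPM. The astrocyte markers summed to 16589 to 19063 CPM in *Bmal1*-/- and 11218 to 15819 CPM in WT, so these sums did not overlap. The astrocyte list itself was split, with 6 of its 11 markers higher and 5 lower and a median log2 fold change of 0.02. None of them passed edgeR's test on its own, and 5 had an unadjusted p under 0.05. The 8 neuron markers were all higher by fitted value, with a median of 0.47 on the log2 scale and sums of 5196 to 6234 CPM in *Bmal1*-/- and 2110 to 5106 CPM in WT, which did not overlap. None of these 8 was called with edgeR, and 1 had an unadjusted p under 0.05. Among the other marker lists, skeletal muscle summed to 5.69 to 7.21 CPM in *Bmal1*-/- and 51.9 to 70.5 CPM in WT. Red cell markers summed to 26.1 to 60.0 and 149 to 451 CPM, and endothelial markers to 496 to 567 and 591 to 940 CPM. These 3 sums did not overlap, while those of oligodendrocytes did. Their part in the complement values was not tested. In such tissue RNA, fewer cells of a type and less RNA per cell cannot be told apart.

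*C4b* rose 1.75-fold in *Bmal1*-/- tissue and was the 1 member called, that is, with an adjusted p under 0.05. The other 8 members had lower fitted values in *Bmal1*-/- tissue, from -0.08 for *C1qc* to -0.69 for *C2* on the log2 scale, and none of them passed. Thus 1 of 9 members was called higher, where 0.654% of all tested genes were, and 0 of 9 were called lower, where 0.915% were. Genotypes did not overlap for 1 member in the higher direction (13.4% of all tested genes) and for 0 members in the lower direction (13.5%). At an unadjusted p under 0.05 there were 2 of 9 members, *C4b* and *C5ar1*, where 20.9% of all tested genes (3286) were. DESeq2 and limma-voom each called 1 member, where they called 9.61% and 1.31% of all tested genes. Over the 9 members the median log2 fold change was -0.34, beside -0.0057 over all tested genes.

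**Figure D1:**
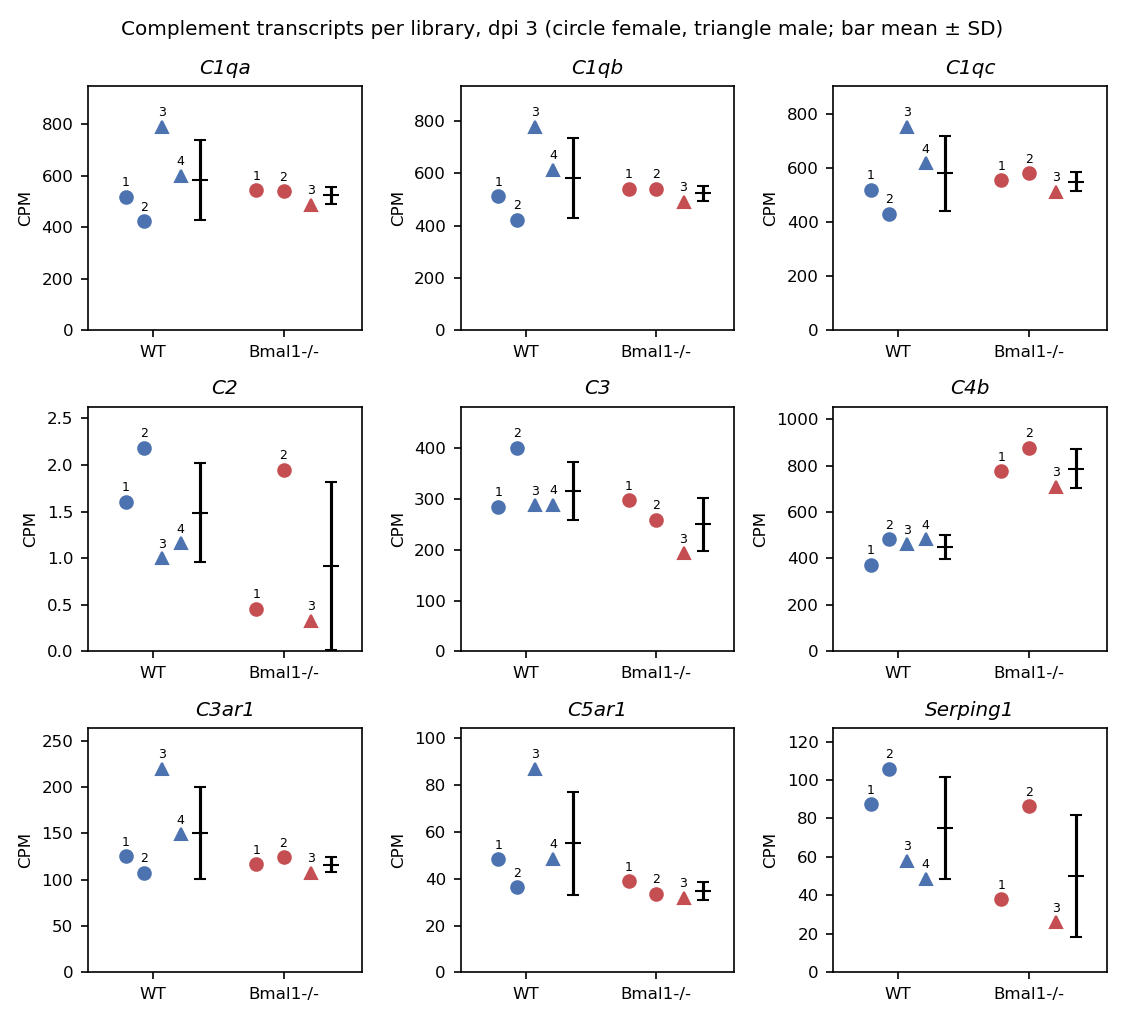
CPM of each of the 9 members (vertical axes from 0) in each library, numbered by replicate, with circles for females, triangles for males and bars for mean ± SD. *C4b* is the gene whose *Bmal1*-/- values (709 to 877 CPM) all lie above the WT values (374 to 484 CPM), and WT 3 is highest for the 3 C1q chains and both receptors.

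**Figure D2:**
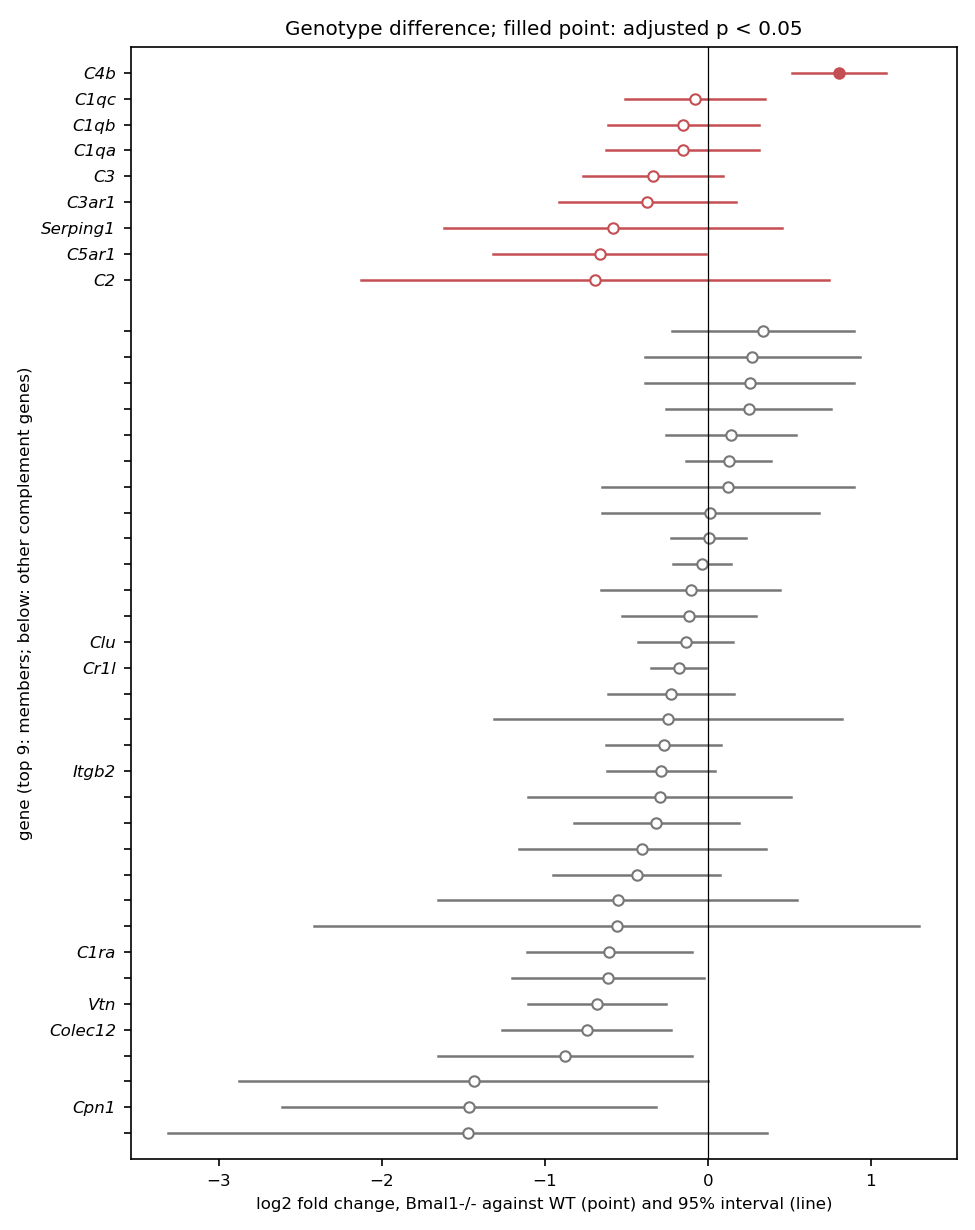
Log2 fold change of *Bmal1*-/- against WT (point) with its 95% interval (line) for the 9 members (top) and other complement genes tested (below, labelled where the text names them), with a filled point where the adjusted p is under 0.05. *C4b* at 0.81 is the filled point, and most of the others lie to the left of 0.

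*C1qa* (ENSMUSG00000036887), *C1qb* (ENSMUSG00000036905) and *C1qc* (ENSMUSG00000036896) encode the A, B and C chains, which assemble in equal numbers into C1q. They are neighbours on the minus strand of chromosome 4 of GRCm38, at chr4:136895917-136898803, chr4:136880129-136886187 and chr4:136889804-136893065. Since the chains move together, the bases upstream of 2 of them are shown, from the promoter table of RefSeq for GRCm38.p6, on the minus strand and 5′ to 3′. Capitals mark a match to AGGTCA, a core motif of nuclear receptors such as REV-ERB, here on the opposite strand as TGACCT.
C1qb, chr4:136886201-136886450: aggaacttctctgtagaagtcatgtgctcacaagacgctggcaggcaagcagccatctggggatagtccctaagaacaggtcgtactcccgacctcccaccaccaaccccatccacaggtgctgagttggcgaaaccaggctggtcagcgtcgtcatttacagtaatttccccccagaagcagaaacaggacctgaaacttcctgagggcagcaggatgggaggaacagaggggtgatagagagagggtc
C1qc, chr4:136893066-136893164: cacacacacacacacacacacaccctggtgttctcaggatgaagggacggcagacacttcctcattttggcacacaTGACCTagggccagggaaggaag

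*C1qa* was at 544, 540.0 and 487 CPM in *Bmal1*-/- 1, 2 and 3 and at 519, 422, 789 and 599 CPM in WT 1 to 4. *C1qb* followed with 540.1, 541 and 490.4 CPM and with 511, 422, 777 and 613 CPM. *C1qc* was at 554, 580.1 and 512 CPM and at 519.8, 430.4, 752 and 617 CPM. For each chain the 3 *Bmal1*-/- values lay inside the WT range, in which WT 2 was lowest and WT 3 highest.

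The chains kept to one another within each library. The ratio of *C1qb* to *C1qa* counts was 0.984 to 1.02 over the 7 libraries, and that of *C1qc* to *C1qa* was 0.952 to 1.07. Between *Bmal1*-/- and WT the means of *C1qa* were 523 ± 31.8 (SD, n = 3) and 582 ± 156 (SD, n = 4) CPM. The log2 fold changes were -0.15 for *C1qa* (95% interval -0.62 to 0.32), -0.15 for *C1qb* (-0.61 to 0.31) and -0.08 for *C1qc* (-0.51 to 0.35). Their adjusted p-values were 0.645, 0.650 and 0.805 (edgeR's quasi-likelihood fit, Benjamini-Hochberg adjusted). Without WT 3 the fold changes turned to 0.028, 0.022 and 0.070, so no direction holds for these chains. Relative to the microglia marker sum, *C1qa* was 0.263 to 0.280 in *Bmal1*-/- and 0.224 to 0.338 in WT.

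*C4b* (ENSMUSG00000073418) encodes complement component C4, the first substrate of the activated C1 complex, and lies on the minus strand at chr17:34728380-34743882. Its near-identical copy *C4a* lies close by but had no entry under that symbol in the table, so it has no counts of its own here. Over 5367 aligned bases the transcripts of *C4b* and *C4a* are 96.1% identical. Of all 75-base windows of the *C4b* transcripts, 22.7% also occur in *C4a*, so part of the reads could come from either gene. A stretch of exon 21 where the 2 transcripts differ most is shown from the GRCm38 genome, minus strand and 5′ to 3′, with the 13 differing bases of 75 in capitals.
C4b, chr17:34735430-34735504: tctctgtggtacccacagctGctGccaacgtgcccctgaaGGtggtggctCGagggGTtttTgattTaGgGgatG
C4a, chr17:34816086-34816160: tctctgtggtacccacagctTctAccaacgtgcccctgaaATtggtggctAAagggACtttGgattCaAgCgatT

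*C4b* was at 776, 877 and 709 CPM in *Bmal1*-/- 1, 2 and 3 and at 374, 484, 460.5 and 482 CPM in WT 1 to 4. All 3 *Bmal1*-/- libraries were above all 4 WT libraries. Mean levels were 787 ± 84.5 (SD, n = 3) and 450.1 ± 51.9 (SD, n = 4) CPM, a log2 fold change of 0.81 (standard error 0.12, 95% interval 0.52 to 1.09, adjusted p = 0.0289 from edgeR's quasi-likelihood fit, Benjamini-Hochberg adjusted). By mean CPM it ranked 2 among the 103 genes called higher, and by fold change it ranked 53.

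The size of the *C4b* difference was 0.72 to 0.87 on the log2 scale with each library left out, but the call was not stable. With edgeR's quasi-likelihood fit the adjusted p was 0.135, 0.0753 and 0.0761 without *Bmal1*-/- 1, 2 and 3, and 0.0577, 0.0594 and 0.0725 without WT 1, 2 and 4. Without WT 3 it was 0.0204. With sex as a covariate the log2 fold change was 0.81 and the adjusted p was 0.0627.

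The summed astrocyte and neuron markers were both higher along with *C4b*, although the astrocyte markers did not move as one. Relative to the astrocyte sum, *C4b* was 0.0407 to 0.0468 in *Bmal1*-/- and 0.0290 to 0.0410 in WT, where WT 3 was the library that overlapped. Relative to *C1qa* it was 1.43 to 1.62 in *Bmal1*-/- and 0.583 to 1.15 in WT, without overlap. The part of these cell types in the *C4b* difference was not tested. The other tested genes within 200 kb of *C4b* were 20, with 6 higher and 14 lower fitted values between -0.86 and 0.29, and none was called.

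*C2* (ENSMUSG00000024371) encodes the protease that joins the C4 fragment, and lies at chr17:34862604-34898265 on the minus strand. It was barely detected, with 18, 84 and 13 counts in *Bmal1*-/- 1, 2 and 3 and 63, 85, 40 and 46 counts in WT 1 to 4. In addition, 39.2% of its 75-base windows also occur in the overlapping genes *Gm20547* and *Zbtb12*, which makes its level uncertain.

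*Bmal1*-/- 1 and 3 had the lowest *C2* values, while *Bmal1*-/- 2 was within the WT range. The log2 fold change was -0.69 (95% interval -2.13 to 0.74, adjusted p = 0.495 from edgeR's quasi-likelihood fit), and -1.91 without *Bmal1*-/- 2 (adjusted p = 0.106). It was -0.37 and -0.30 without *Bmal1*-/- 1 and 3, and -0.45 without WT 2. With both *Bmal1*-/- 2 and WT 3 left out, a choice made after the data were seen, it was -2.06 and passed (adjusted p = 0.0315 from edgeR's quasi-likelihood fit).

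*C3* (ENSMUSG00000024164) encodes the protein on which the complement pathways converge, and lies at chr17:57203970-57228136 on the minus strand. The 250 bases upstream of it are shown as for the C1q chains, since they too hold AGGTCA.
C3, chr17:57228137-57228386: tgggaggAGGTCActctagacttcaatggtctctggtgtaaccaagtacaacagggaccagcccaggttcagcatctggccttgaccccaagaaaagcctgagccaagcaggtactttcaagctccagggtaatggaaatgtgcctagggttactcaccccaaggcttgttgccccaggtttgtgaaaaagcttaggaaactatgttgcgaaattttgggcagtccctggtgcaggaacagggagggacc

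*C3* was at 297, 259 and 193 CPM in *Bmal1*-/- 1, 2 and 3 and at 285, 401, 287 and 289 CPM in WT 1 to 4. WT 2 was high and *Bmal1*-/- 3 low, and the groups overlapped. Mean levels were 249.9 ± 52.8 (SD, n = 3) and 315 ± 56.9 (SD, n = 4) CPM, a log2 fold change of -0.34 (95% interval -0.76 to 0.09, adjusted p = 0.315 from edgeR's quasi-likelihood fit, Benjamini-Hochberg adjusted). It was -0.18 without *Bmal1*-/- 3 and -0.20 without WT 2. *C4b* and *C3* thus parted within the same libraries. The ratio of *C4b* to *C3* counts was 2.61, 3.38 and 3.67 in *Bmal1*-/- 1, 2 and 3 and 1.21 to 1.67 in WT, without overlap.

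The RefSeq promoter table, which spans 250 bases before to 50 after a gene start, held 5 of the 9 members. *C1qa*, *C2*, *C4b* and *Serping1* had no entry. Each window was searched on both strands for the E-box CACGTG, the nuclear receptor motif AGGTCA, the D-box TTATGTAA and the STAT motif TTCNNNGAA. AGGTCA was found in *C1qc* and *C3*, at positions -174 and -243 from the RefSeq start, and no other motif was found in the 5 windows. Over all 32851 promoters of the table, 7.15% hold the E-box, 16.3% AGGTCA, 0.938% the D-box and 8.30% the STAT motif.

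*C3ar1* (ENSMUSG00000040552, chr6:122847138-122856161) encodes the receptor for C3a and *C5ar1* (ENSMUSG00000049130, chr7:16246743-16259540) that for C5a, the latter abundant on neutrophils and macrophages. *C3ar1* was at 116, 124 and 108 CPM in *Bmal1*-/- 1, 2 and 3 and at 125, 107, 219.6 and 149 CPM in WT 1 to 4. *C5ar1* was at 39.0, 33.6 and 31.9 CPM and at 48.5, 36.5, 87.1 and 48.6 CPM. WT 3 was far above the rest for both receptors, and the *Bmal1*-/- values overlapped the lower WT values.

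The log2 fold change of *C3ar1* was -0.37 (95% interval -0.91 to 0.17, adjusted p = 0.359 from edgeR's quasi-likelihood fit, Benjamini-Hochberg adjusted), and -0.13 without WT 3. That of *C5ar1* was -0.66 (95% interval -1.32 to -0.01), with an unadjusted p of 0.0475 and an adjusted p of 0.236 from edgeR's quasi-likelihood fit. Without WT 3 it was -0.36 (adjusted p = 0.164 from the same edgeR fit). The macrophage marker sum was likewise highest in WT 3, at 5054 CPM against 2474 to 3368 CPM in the other WT libraries. The neutrophil markers summed to 80.7 to 111 CPM in *Bmal1*-/- and 76.0 to 182 CPM in WT. The part of these cells in the receptor values was not tested.

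*Serping1* (ENSMUSG00000023224, chr2:84765387-84775444) encodes the C1 inhibitor, which blocks the proteases of the C1 complex. It was at 38.1, 86.3 and 26.0 CPM in *Bmal1*-/- 1, 2 and 3 and at 87.4, 106, 58.0 and 48.6 CPM in WT 1 to 4. *Bmal1*-/- 1 and 3 were below every WT library, while *Bmal1*-/- 2 was among them. The log2 fold change was -0.58 (95% interval -1.62 to 0.46, adjusted p = 0.434 from edgeR's quasi-likelihood fit, Benjamini-Hochberg adjusted), and -1.22 without *Bmal1*-/- 2 (adjusted p = 0.182). It was -0.27 without *Bmal1*-/- 3 and -0.37 without WT 2. The fibroblast marker sums of *Bmal1*-/- 1 and 3 (512 and 431 CPM) were likewise below the WT range of 1310 to 2070 CPM, while that of *Bmal1*-/- 2 (2463 CPM) was above it. The part of fibroblasts in the *Serping1* and *C2* values was not tested.

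**Figure D3:**
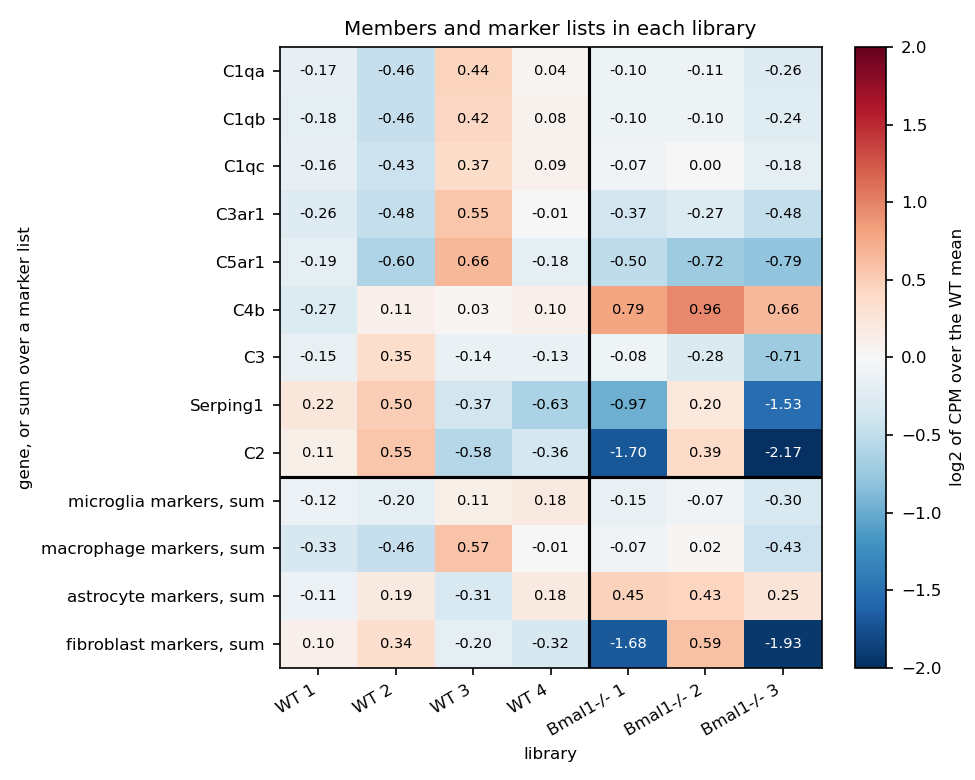
Log2 of each library's CPM over the WT mean (colour and number) for the 9 members and for the sums of 4 marker lists, with libraries along the horizontal axis and a line between the genotypes. The C1q chains and receptors share their highest value with the macrophage markers in WT 3, and *Serping1* and *C2* share low values with the fibroblast markers in *Bmal1*-/- 1 and 3.

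Levels between genes were compared per length, as CPM per kb of exons in WT. *C1qa* (560 ± 150, SD, n = 4) and *C1qb* (534 ± 140) led, within their spread of each other, and *C1qc* followed at 300 ± 71.3. *C4b* at 79.0 ± 9.11 and *C3* at 61.3 ± 11.1 came next. *C3ar1* at 34.9 ± 11.4, *Serping1* at 32.2 ± 11.4 and *C5ar1* at 21.5 ± 8.57 followed. Among these, neighbours differed by no more than the larger of their SDs. *C2* was last at 0.38 ± 0.14, far below *C5ar1*. In *Bmal1*-/- tissue *C4b* stood at 138 ± 14.8 and *C3* at 48.6 ± 10.3 CPM per kb (SD, n = 3).

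**Figure D4:**
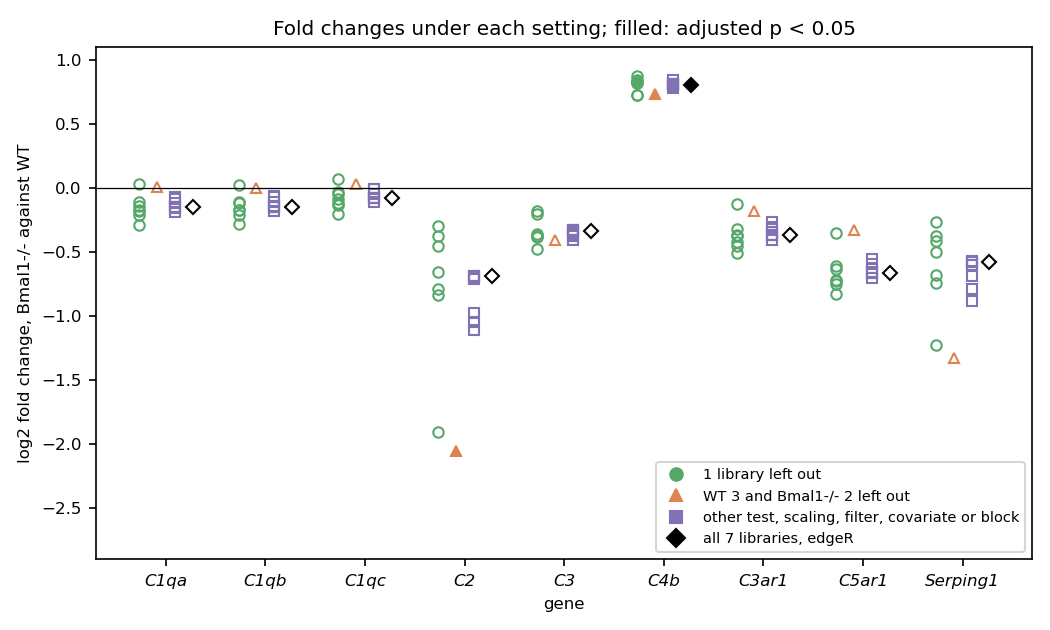
Log2 fold change of each member (vertical axis) under every setting, with circles for 1 library left out, triangles for WT 3 and *Bmal1*-/- 2 left out, squares for another test, scaling, filter, covariate or block, and diamonds for all 7 libraries with edgeR. Filled symbols have an adjusted p under 0.05, and *C4b* stays between 0.72 and 0.87 while *C2* runs from -0.30 to -2.06.

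The rest of the pathway was read from a list of 47 other complement genes. Of these 46 were in the table and 33 were tested, with 9 higher and 24 lower fitted values and a median log2 fold change of -0.27. None was called with edgeR's quasi-likelihood fit, in which 8 of 33 had an unadjusted p under 0.05, beside 20.9% of all tested genes. DESeq2 called 2 of 33, *Colec12* and *Vtn*, beside 9.61% of all tested genes, and limma-voom 0. Genotypes did not overlap for 4 of the 33, all in the lower direction, beside 13.5% of all tested genes.

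Those 4 were *Colec12*, a scavenger receptor that binds complement activators, *Vtn*, the vitronectin gene whose product blocks the terminal complex, *Cr1l*, the regulator Crry, and *Cpn1*, a subunit of the enzyme that inactivates C3a and C5a. Their log2 fold changes were -0.74 for *Colec12*, -0.68 for *Vtn*, -0.18 for *Cr1l* and -1.47 for *Cpn1*, with adjusted p-values of 0.145, 0.118, 0.226 and 0.177 from edgeR's quasi-likelihood fit. *Cpn1* was near the limit of detection, at 0.16 against 0.46 CPM.

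By role, 7 of 8 tested genes of the classical and lectin pathways, 2 of 2 of the alternative pathway and 7 of 8 receptors had lower fitted values. Among the regulators it was 7 of 12, and among the terminal components 1 of 3. Over all tested genes it was 8042 of 15743, and none of the 33 complement genes was called with edgeR's quasi-likelihood fit. These counts use all 7 libraries and were not repeated without WT 3. The receptor genes summed to 615 CPM in WT 3, 353 to 432 CPM in the other WT libraries and 328 to 371 CPM in *Bmal1*-/-. For the alternative pathway the sums were 45.6, 26.0 to 28.7 and 22.5 to 27.0 CPM. WT 3 was not highest for the classical and lectin genes or the regulators. The most abundant of the 33 was *Clu*, which encodes the regulator clusterin, at 1303 ± 32.2 (SD, n = 3) against 1432 ± 180 (SD, n = 4) CPM. *Itgb2*, the shared chain of the C3 fragment receptors, was at 116 ± 4.14 against 141 ± 26.4 CPM, and the groups overlapped. WT 3 was highest for it at 175 CPM. Its log2 fold change was -0.29 (adjusted p = 0.280 from edgeR's quasi-likelihood fit), and -0.17 without WT 3 (adjusted p = 0.333 from the same fit). Without *Bmal1*-/- 2, *Colec12* passed at -1.08 (adjusted p = 0.0202 from edgeR's quasi-likelihood fit).

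Over the 7 libraries the genes most like each member were taken by Pearson's r of log2 CPM among 14357 genes. These values describe libraries that share genotype and tissue composition. *C1qa* was most like *C1qb* (r = 0.998), *Lcp2* and *Csf2rb*, and *C1qb* and *C1qc* both had *Trem2* among their first 3, with *Tyrobp* and *Sh3bp2* also near *C1qc*. Near *C3ar1* were *Cd53* and *Tnfrsf1b* (r = 0.996 for both). *C4b* was most like *Mlf2* (r = 0.988), *Papss2* (r = 0.987) and *Acy3* (r = 0.982), of which *Papss2* and *Acy3* were themselves called higher, with log2 fold changes of 0.85 and 1.11 (adjusted p = 0.0194 and 0.0107 from edgeR's quasi-likelihood fit).

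*C2* was most like *Olfr1033*, *Igfbp6* and *Fzd2*, and *Serping1* most like *Adgrd1*, *Eif4e3* and *Col14a1*. *C3* was most like *Zfp503* (r = 0.992), *Slc14a1* and *Ddit4l*, and *C5ar1* most like *Ints5*, *Rps15a* and *Nup62*. Among the members themselves, r was 0.985 to 0.998 between the C1q chains, 0.942 between the receptors and 0.966 between *C2* and *Serping1*. It was -0.42 between *C3* and *C4b*.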

How the data were processed

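RNASeq was made from 3 mice labelled *Bmal1*-/- and 4 WT mice. The authors made poly-A libraries with a stranded kit, used Tophat 2 with GRCm38 and HTSeq (version 0.10.0) for counting, and deposited raw counts per gene. The annotation release and the strand setting are not given in the sources used here. Genes were matched to GENCODE, leaving 26 unmatched. Genes were filtered with filterByExpr, scaled by TMM and compared by genotype with edgeR's quasi-likelihood test, and p-values were adjusted by Benjamini-Hochberg over 15743 genes with a threshold of 0.05 (edgeR 4.0.16, limma 3.58.1, R 4.3.3). CPM are counts scaled by library size and TMM factors. With common dispersion 0.0342, the spread between mice, not counting error, limits all but the least abundant genes. The scripts were tested on simulated data.

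The members and lists were chosen with earlier results of these data known. The genes named are the members, the other complement genes that were called or did not overlap, the 3 of these most abundant, and the 3 genes most like each member by r. Not every gene falling under this is given. *Per3* and *Nr1d2* were named as a check of the labels. Alternatives were a sex covariate, the replicate number as a block, DESeq2 1.42.0, limma-voom, scaling by upper quartile or RLE, a filter at a mean count of 10 or none beyond 1 count, and each library left out. Leaving out WT 3 and *Bmal1*-/- 2 together, and the interaction of sex and genotype, were added after seeing the data. The first was added because these libraries stand apart on marker levels, which are measured in the same libraries. Sequences came from RefSeq tables and GENCODE transcripts, and plots were drawn with matplotlib 3.10.9.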

Additional observations from a re-analysis of the deposited data

Results flagged for a closer look

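*C3* in WT 2 was at 401 CPM, where the nearest other WT library was at 289 CPM. The gap was 0.964 of the range of the 4 WT libraries, above Dixon's 95% critical value. It was the 1 gap above that value among 17 groups of 4 WT libraries examined, and chance gives about 1 in 20. The *Bmal1*-/- libraries were not examined in this way.

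The C1q chains were flagged because their genotype difference ran in opposite directions in the sexes, without overlap within either sex. In females the *Bmal1*-/- libraries were above WT by 0.21, 0.22 and 0.26 on the log2 scale for *C1qa*, *C1qb* and *C1qc*, and in males the values were -0.50, -0.49 and -0.41. The interaction (males minus females) was -0.716 for *C1qa*, -0.714 for *C1qb* and -0.674 for *C1qc*, with unadjusted p of 0.0439, 0.0331 and 0.0326 and an adjusted p of 0.40 for each in edgeR's quasi-likelihood test. It called 0 of the 15743 genes, with 1934 under an unadjusted p of 0.05. The interaction was added after seeing the data, it rests on 1 *Bmal1*-/- male, and WT 3 is a male. It was negative for the other members as well, among them *C3ar1* at -0.827 and *C5ar1* at -0.863. A negative value was thus not particular to the C1q chains.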

How the results depend on the processing

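The number of members called was 1 with DESeq2, limma-voom, both other scalings and both other filters, 0 with sex as a covariate, 0 with a replicate block, 0 to 1 with each library left out, and 2 (*C4b* and *C2*) without WT 3 and *Bmal1*-/- 2 together. Of the other complement genes 2 were called with DESeq2, 0 to 2 with each library left out, and 4 (*C1ra*, *Colec12* and *Vtn* among them) without WT 3 and *Bmal1*-/- 2. The setting without both libraries was chosen after seeing the data. There 273 of 15815 genes were called higher and 625 lower over all genes, against 103 and 144 of 15743 with all 7 libraries. DESeq2 called 9.61% of all tested genes. Without *Bmal1*-/- 2, where 2 of the other complement genes were called, 46 of 15872 genes were called higher and 133 lower. The log2 fold change of *C4b* was 0.81 with sex as a covariate, 0.84 with the block and 0.72 to 0.87 with each library left out, and that of *Arntl* was 0.77 with the block, 0.71 to 0.82 with each library left out, and 0.69 without both libraries. With each library left out, *C1qa* ranged from -0.29 to 0.028, *C1qb* from -0.28 to 0.022 and *C1qc* from -0.21 to 0.070, all 3 positive without WT 3, and without WT 3 and *Bmal1*-/- 2 they were 0.0063, 5.9e-05 and 0.029.

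With the block 0 of the 15743 genes passed in edgeR, where 1590 had an unadjusted p under 0.05, 2 of them members. Replicate numbers only name samples here: the correlations of deviations for numbers 1, 2 and 3 were -0.174, 0.183 and -0.295. Over all genes, 103 were called higher and 144 lower, against 599 and 914 with DESeq2, 69 and 105 with sex as a covariate, and 291 and 439 without WT 3. With each other library left out they were 30 to 60 and 27 to 133, and without both libraries 273 and 625. Where a call was lost, the cause was not tested.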
